A study of Homo sapiens with 6 samples.

Results

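The genes described here are 10 textbook targets of the transcription factor NF-kB, among them the feedback inhibitors that NF-kB switches on. They were chosen by name, with no measured value in the rule, from the 20812 genes on the panel, and are NFKB1, NFKB2, RELB, NFKBIA, TNFAIP3, BIRC3, TNFAIP2, IER3, ICAM1 and TNF. In MCF10A GIRK1 cells 2 of them, IER3 and TNFAIP2, fell against the eGFP control line, where 0.84% of all tested genes were called lower. Against WT replicate 2, a single library of the parental line, 0 of the 9 tested passed, where 0.229% of all tested genes were called. The 3 subunit genes were at lower levels in both GIRK1 libraries than in every control library compared, without passing the test. Of all tested genes 19.3% lay below all 3 of those controls. NFKBIA and ICAM1 were lower in GIRK1 than in both eGFP libraries but not than in WT replicate 2, TNFAIP3 was high in 1 eGFP library alone, BIRC3 did not separate the groups, and TNF had at most 3 reads in any library.

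MCF10A is a benign human mammary epithelial cell line. The study compared the parental line (WT), cells stably transfected with a plasmid for eGFP alone (eGFP) and cells stably transfected with the same bicistronic eGFP plasmid carrying GIRK1, a potassium channel subunit encoded by KCNJ3 (GIRK1), each with 2 libraries. Both transfected lines went through G418 selection and were sorted for eGFP fluorescence, so they share the vector, the drug and the sort, which the WT cells lack. Expression was measured by Ion AmpliSeq sequencing, which copies a single short stretch of each gene's cDNA and counts its reads, and levels are given as RPM, the reads of a gene scaled to the library's total. The overexpression is constitutive in a selected, sorted pool. Isoforms that hold a gene's amplicon are counted together, and any that lack it are not counted. Levels of different genes are not comparable because amplicons differ in efficiency. The labels do not say whether the 2 libraries of a line came from separate cultures, so p-values measure only the spread between these samples, which may be technical. In the deposited data the GIRK1 libraries are named with a tag that differs from that of the other 4, and whatever the tag stands for cannot be told apart from the condition.

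The libraries held 5126930 to 16040556 reads, except WT replicate 1 with 2506120. KCNJ3 was at 286 ± 98.0 RPM in GIRK1 (SD, n = 2) and at 0 reads in both eGFP libraries and WT replicate 2, but had 48 reads in WT replicate 1. That library also went against its label in its markers. The summed level of the 6 basal mammary markers, which MCF10A expresses, was 51.5 RPM there and 7000 to 14100 RPM in the other 5 libraries, while the 7 luminal markers summed to 10600 RPM there and to 145 to 554 RPM in the others. TP63, a defining basal factor, had 0 reads in all 6 libraries, though an isoform without its amplicon would not be counted. ESR1, PGR, TFF1 and KRT19 had 0 reads in the other 5. The library labelled WT replicate 1 was therefore kept out of the tests and is described apart. The basal sum hides changes of its members in both directions. LAMB3 averaged 259 RPM in GIRK1 and 1768 RPM in eGFP (adjusted p = 0.00301 by edgeR). KRT17 averaged 4157 RPM in GIRK1 and 902.5 RPM in eGFP (adjusted p = 0.00764 by edgeR). Of the other lists, the 4 fibroblast markers summed to 31.9 and 33.5 RPM in GIRK1 and to 8.60 to 13.7 RPM in the 3 controls, a difference that came from DCN (26.1 RPM in GIRK1 and 2.25 RPM in eGFP on average, adjusted p = 0.0328 by edgeR). COL1A1 averaged 6.31 RPM in GIRK1 and 6.83 RPM in eGFP, PDGFRB was under 1 RPM, COL1A2 was at 0 throughout, and the part of these markers in the results below was not tested.

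NF-kB is a family of dimeric transcription factors held in the cytoplasm by inhibitory IkB proteins. Signals from receptors such as those for TNF and interleukin-1 activate a kinase complex that marks IkB for destruction, the dimers enter the nucleus, and among the first genes they switch on are IkB itself and other brakes that end the response. In epithelial cells the pathway drives cytokines, adhesion molecules and survival genes.

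The dimers bind short DNA elements, and the promoters below show where such letters lie next to some of the genes measured. RefSeq promoters (GRCh38.p14) were matched for 8 of the 10 genes, and the 250 bases before each start were searched for GGAANNNCC and its reverse complement GGNNNTTCC, on both strands. The pattern was chosen with these sequences in view. It was present in at least 1 promoter of 7 of the 8 genes, and in 6012 of all 35116 promoters of that length (17.1%). Counted per start, as in that share, 8 of the 11 starts of these genes had it. The genes were listed because they are known NF-kB targets, so the match is a description of the list and not a site or a result. TNFAIP2 is shown because its level fell, and TNFAIP3, NFKBIA, ICAM1 and BIRC3 as genes that did not separate GIRK1 from all 3 control libraries. Each is printed 5′ to 3′ on the gene's strand, ending at the base before the start, with the pattern in capitals.
TNFAIP2 (chr14:103123211-103123460, plus strand): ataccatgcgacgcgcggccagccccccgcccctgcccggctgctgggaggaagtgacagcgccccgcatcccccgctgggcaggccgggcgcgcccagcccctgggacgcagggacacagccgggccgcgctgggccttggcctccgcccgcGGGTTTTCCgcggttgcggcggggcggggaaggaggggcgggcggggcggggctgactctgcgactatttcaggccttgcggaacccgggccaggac
NFKBIA (chr14:35404750-35404999, minus strand): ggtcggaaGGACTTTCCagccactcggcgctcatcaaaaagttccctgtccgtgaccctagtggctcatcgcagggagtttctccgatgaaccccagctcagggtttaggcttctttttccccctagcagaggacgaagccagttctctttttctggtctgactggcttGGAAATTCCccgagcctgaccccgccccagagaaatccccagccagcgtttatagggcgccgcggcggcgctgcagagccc
TNFAIP3 (chr6:137867009-137867258, plus strand): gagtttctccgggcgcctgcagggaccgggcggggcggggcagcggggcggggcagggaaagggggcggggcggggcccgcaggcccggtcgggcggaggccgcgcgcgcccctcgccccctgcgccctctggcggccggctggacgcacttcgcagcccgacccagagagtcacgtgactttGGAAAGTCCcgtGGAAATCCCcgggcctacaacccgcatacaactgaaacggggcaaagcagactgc
ICAM1 (chr19:10270870-10271119, plus strand): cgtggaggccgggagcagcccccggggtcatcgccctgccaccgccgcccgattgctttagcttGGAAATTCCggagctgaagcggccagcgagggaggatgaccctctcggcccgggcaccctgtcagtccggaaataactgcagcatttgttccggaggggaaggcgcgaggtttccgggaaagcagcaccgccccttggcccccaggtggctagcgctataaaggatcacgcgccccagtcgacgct
BIRC3 (chr11:102317234-102317483, plus strand): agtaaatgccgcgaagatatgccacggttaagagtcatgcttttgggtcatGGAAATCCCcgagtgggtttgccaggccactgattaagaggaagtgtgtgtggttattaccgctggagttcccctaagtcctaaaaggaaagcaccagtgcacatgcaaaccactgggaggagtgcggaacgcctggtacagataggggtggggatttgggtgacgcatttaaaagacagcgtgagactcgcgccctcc

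In NFKBIA the pattern began 242 and 81 bases before the start, in TNFAIP3 67 and 55 bases, in ICAM1 186, in BIRC3 199 and in TNFAIP2 97. NFKB1 held it 48 bases before 1 of its 2 starts, and NFKB2 held it before 2 of its 3 starts. No match lay in the window of TNF, which says only that these letters are not in it.

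**Figure D1:**
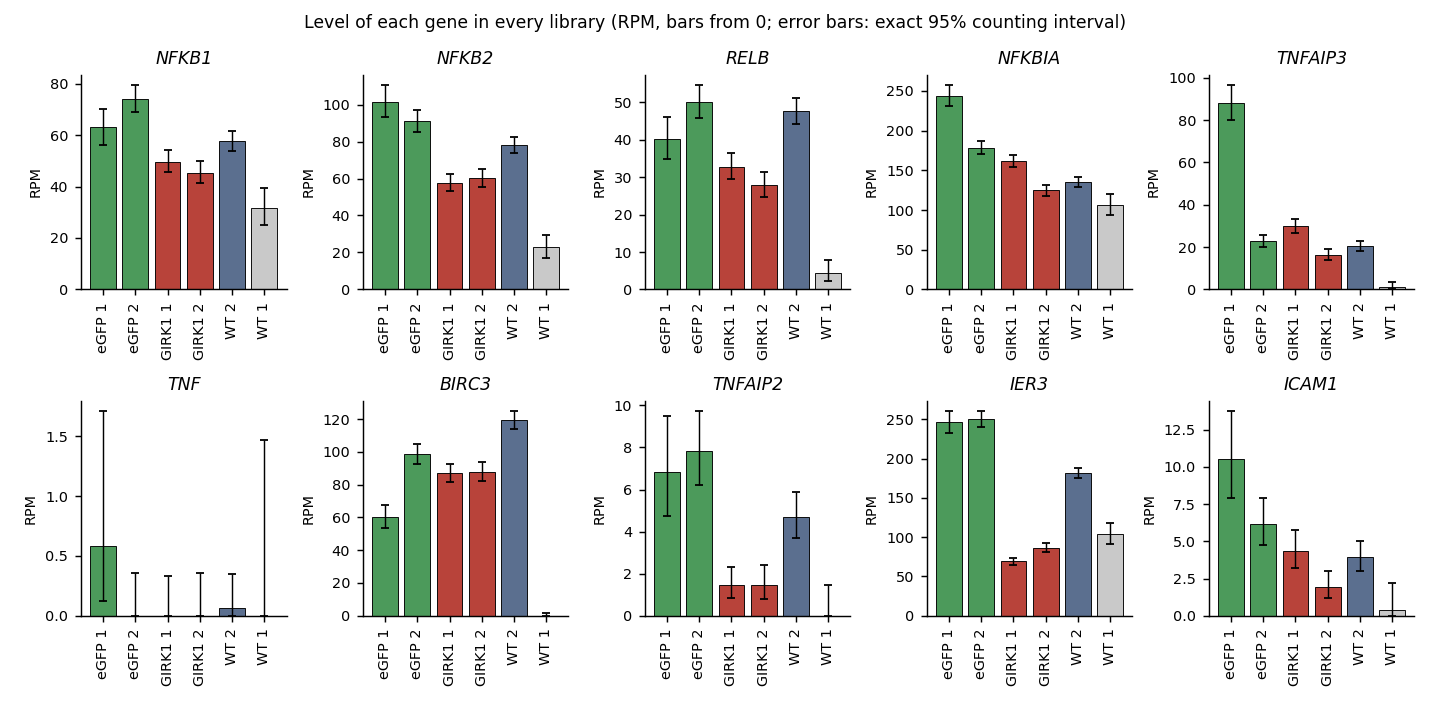
Level of each of the 10 genes in RPM in all 6 libraries, with an exact 95% counting interval on each bar and a separate linear axis from 0 in each panel. IER3 and TNFAIP2 stood lower in both GIRK1 libraries than in the eGFP libraries and WT replicate 2, TNFAIP3 stood high in eGFP replicate 1 alone, and WT replicate 1 had 0 reads of BIRC3.

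IER3 (chr6:30743199-30744554, minus strand, GRCh38, GENCODE annotation) encodes an early stress-response protein that modulates cell death and is a direct NF-kB target. It had 1264 and 2562 reads in the eGFP libraries, or 246 and 250 RPM, against 767 and 893 reads in the GIRK1 libraries, or 69.0 and 86.3 RPM. WT replicate 2 had 2916 reads (182 RPM). The exact 95% counting intervals were 64.2 to 74.1 and 80.7 to 92.2 RPM in GIRK1 and 233 to 261 and 241 to 260 RPM in eGFP, and such intervals cover counting error only. Both GIRK1 libraries were the lowest of the 5, the 2 eGFP libraries were close to each other, and WT replicate 2 lay between. The means were 248 ± 2.69 RPM in eGFP and 77.7 ± 12.2 RPM in GIRK1 (SD, n = 2 each), a ratio of 3.20. In such bulk samples fewer cells that express a gene and less RNA per cell cannot be told apart. On the log2 scale the difference was -1.72 (SE 0.23), adjusted p = 0.0212 by edgeR's quasi-likelihood test over the 11779 genes that passed its filter on low counts. Against WT replicate 2 it was -1.20 (SE 0.26), which did not pass (adjusted p = 0.286 by edgeR). Without GIRK1 replicate 1 the fall against eGFP was 1.55 on the log2 scale and no longer passed (adjusted p = 0.0948 by edgeR). Over 13 alternative settings 11 passed, with adjusted p from 1.62e-07 by DESeq2 to 0.868 by edgeR with all 6 libraries. Against WT replicate 2 the change ran from -1.39 to -1.04 with 1 library left out. Fits without 1 eGFP library take the spread between replicates from the GIRK1 pair alone. Their estimate of it was lower (biological coefficient of variation 0.151, against 0.243 with 5 libraries), and a pass in such a fit rests on that lower spread. IER3 is overlapped by IER3-AS1 on the other strand, and the counts used are the sum of forward and reverse reads. Whether the overlap covers the amplicon was not checked, so reads of IER3-AS1 may be among those counted.

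TNFAIP2 (chr14:103123442-103137439, plus strand), a gene induced by TNF whose protein takes part in membrane protrusions between cells, was much less covered. It had 35 and 80 reads in the eGFP libraries (6.83 and 7.82 RPM), 16 and 15 reads in GIRK1 (1.44 and 1.45 RPM) and 75 reads in WT replicate 2 (4.68 RPM). The counting intervals of the GIRK1 libraries, 0.823 to 2.34 and 0.811 to 2.39 RPM, lay below those of the 3 control libraries, the lowest of which began at 3.68 RPM. Its mean was 7.32 ± 0.7 RPM in eGFP and 1.45 ± 0.00707 RPM in GIRK1 (SD, n = 2 each), and with 16 and 15 reads the SD in GIRK1 was smaller than the counting error. The log2 fold change was -2.37 (SE 0.40, adjusted p = 0.0451 by edgeR), and against WT replicate 2 it was -1.66 (SE 0.45, adjusted p = 0.401). The fold stayed between -2.41 and -2.33 with any 1 of the 5 libraries left out, but the call was lost without GIRK1 replicate 1 (adjusted p = 0.172) and without GIRK1 replicate 2 (adjusted p = 0.193), and 9 of the 13 alternatives passed (adjusted p from 0.00313 to 0.934 by edgeR or DESeq2).

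ICAM1 (chr19:10270835-10286615, plus strand), an adhesion molecule that binds leukocyte integrins, was also low. It had 54 and 63 reads in eGFP (10.5 and 6.16 RPM), 48 and 20 reads in GIRK1 (4.32 and 1.93 RPM) and 63 reads in WT replicate 2 (3.93 RPM). Both GIRK1 libraries were below both eGFP libraries, but WT replicate 2 lay between the 2 GIRK1 libraries. Against eGFP the log2 fold change was -1.44 (SE 0.52, adjusted p = 0.211 by edgeR) and against WT replicate 2 it was -0.31 (SE 0.62). Without eGFP replicate 2 the change against eGFP was -1.85, and the change against WT replicate 2 turned to 0.14 without GIRK1 replicate 2. Annotated genes on the other strand overlap ICAM1 and TNFAIP3. Whether they cover the amplicons was not checked, so reads of theirs may be among those counted.

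The feedback inhibitors did not pass the test. NFKBIA (chr14:35401511-35404749, minus strand) encodes IkB-alpha, which captures NF-kB and carries it out of the nucleus. It was at 244 and 179 RPM in eGFP (1250 and 1828 reads), 162 and 125 RPM in GIRK1 (1794 and 1289 reads) and 135 RPM in WT replicate 2 (2169 reads). GIRK1 lay below both eGFP libraries, whose own spread was 1.36-fold, and on either side of WT replicate 2. In log2 terms GIRK1 differed by -0.61 (SE 0.27, adjusted p = 0.277 by edgeR) against eGFP and 0.10 (SE 0.33) against WT replicate 2. The change against eGFP was -0.87 without eGFP replicate 2, and that against WT replicate 2 turned to -0.08 without GIRK1 replicate 1.

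TNFAIP3 (chr6:137867188-137883312, plus strand) encodes A20, a ubiquitin-editing enzyme that switches off signalling upstream of IkB. Its levels were 88.2 and 22.7 RPM in eGFP (452 and 232 reads), 29.9 and 16.3 RPM in GIRK1 (332 and 169 reads) and 20.4 RPM in WT replicate 2 (327 reads). eGFP replicate 1 was 3.89 times eGFP replicate 2, and the other 4 libraries lay between 16.3 and 29.9 RPM with the groups overlapping. The log2 fold change of -1.32 (SE 0.63, adjusted p = 0.31 by edgeR) rested on 1 library, since without eGFP replicate 1 it was 0.05, and without eGFP replicate 2 it was -2.03. Against WT replicate 2 it was 0.20 (SE 0.76), and -0.28 without GIRK1 replicate 1.

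BIRC3 (chr11:102317450-102339403, plus strand) encodes cIAP2, a ubiquitin ligase at the TNF receptor that also restrains the alternative NF-kB arm. It was at 60.3 and 98.5 RPM in eGFP (309 and 1008 reads), 87.2 and 87.9 RPM in GIRK1 (968 and 909 reads) and 119 RPM in WT replicate 2 (1916 reads). The GIRK1 libraries lay between the 2 eGFP libraries and below WT replicate 2, so BIRC3 alone of the 9 tested genes had a positive log2 fold change against eGFP, 0.11 (SE 0.25, adjusted p = 0.838 by edgeR), which turned to -0.15 without eGFP replicate 1. Against WT replicate 2 it was -0.43 (SE 0.30).

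The 3 subunit genes differed by less than 2-fold, and none passed the test. NFKB1 (chr4:102501329-102617302, plus strand) encodes p105, which is processed to p50 and is itself induced by NF-kB. It was at 63.0 and 74.1 RPM in eGFP (323 and 758 reads), 49.7 and 45.4 RPM in GIRK1 (552 and 470 reads) and 57.6 RPM in WT replicate 2 (924 reads). GIRK1 was lowest, with a log2 fold change of -0.57 (SE 0.20, adjusted p = 0.208 by edgeR) against eGFP and -0.26 (SE 0.25) against WT replicate 2.

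NFKB2 (chr10:102394110-102402529, plus strand) encodes p100, the precursor of p52 and an inhibitor of RELB dimers. Its levels were 102 and 90.9 RPM in eGFP (521 and 930 reads), 57.7 and 60.3 RPM in GIRK1 (641 and 624 reads) and 77.9 RPM in WT replicate 2 (1249 reads). The groups did not overlap, and the means were 96.2 ± 7.60 RPM in eGFP and 59.0 ± 1.84 RPM in GIRK1 (SD, n = 2 each). The log2 fold change was -0.75 (SE 0.21, adjusted p = 0.141 by edgeR), or -0.89 without eGFP replicate 2, and -0.38 (SE 0.25) against WT replicate 2.

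RELB (chr19:45001430-45038198, plus strand), the partner of p52 in the alternative arm, was at 40.2 and 50.1 RPM in eGFP (206 and 513 reads), 32.8 and 27.9 RPM in GIRK1 (364 and 289 reads) and 47.6 RPM in WT replicate 2 (764 reads). Both GIRK1 libraries were again the lowest. It was the 1 subunit gene whose change was alike against both controls, -0.61 (SE 0.22, adjusted p = 0.214 by edgeR) against eGFP and -0.63 (SE 0.26, adjusted p = 0.676) against WT replicate 2, since eGFP and WT replicate 2 differed by -0.02 (SE 0.27).

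TNF (chr6:31575567-31578336, plus strand), the cytokine that activates the pathway and is itself a target, was at or under the limit that 3 reads set in every library. It had 3 reads in eGFP replicate 1 (0.585 RPM, exact 95% interval 0.121 to 1.71), 1 read in WT replicate 2 and 0 reads in the other 4. With 0 reads, 3 reads would correspond to 0.27 and 0.29 RPM in the GIRK1 libraries. TNF did not pass the filter on low counts, no fold is given, and a difference was not detectable at this depth.

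**Figure D2:**
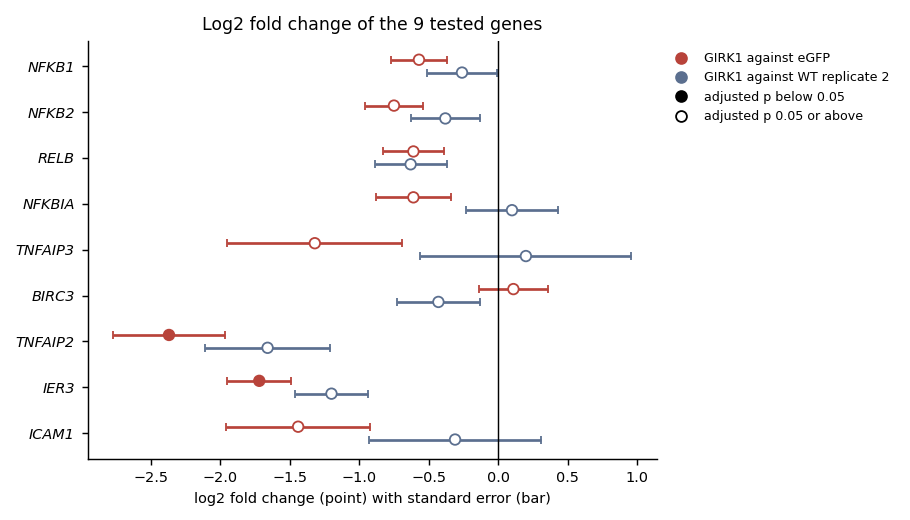
Log2 fold change (points) with its standard error (bars) for the 9 tested genes in GIRK1 against eGFP (red) and against WT replicate 2 (blue), with filled points where edgeR's adjusted p was below 0.05. Only IER3 and TNFAIP2 against eGFP are filled, and NFKBIA, TNFAIP3 and ICAM1 sit farther to the left against eGFP than against WT replicate 2.

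Of the 9 genes tested, 2 fell against eGFP and 0 rose by edgeR, where 1.6% of all tested genes were called in either direction and 0.84% were called lower. DESeq2 also called 2 of the 9, but called 5.75% of all tested genes. At an unadjusted p below 0.05 the count was 6 lower, with 10.7% of all tested genes lower by that rule. A negative log2 fold change was found for 8 of the 9 genes, with a median of -0.75, while 48.7% of all tested genes were negative and their median was 0.02. Both GIRK1 libraries lay below all 3 control libraries for 5 of the 9 (NFKB1, NFKB2, RELB, IER3 and TNFAIP2), a pattern that 19.3% of all tested genes showed, and above them for 0 of the 9, against 21.6% of all tested genes. Set against the eGFP libraries alone, 7 of the 9 lay below both, as did 24.8% of all tested genes. By the rule of the study, means of RPM at least 2-fold apart with a coefficient of variation below 0.7 in each line, 3 of the 10 genes (TNFAIP2, IER3 and ICAM1) were lower in GIRK1, as were 3.28% of all 20812. In simulated counts with this design, 12% of 2-fold and 98% of 8-fold changes were recovered, so changes of the size of those in the subunit genes would mostly be missed.

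Set against WT replicate 2, a single library that the fit assumes to vary like the other lines, the change was smaller than against eGFP for 7 of the 9 genes, all but RELB and BIRC3. By edgeR 0 of the 9 genes passed, 3 were lower at an unadjusted p below 0.05, and DESeq2 called 1, IER3. Over all tested genes edgeR called 0.229% in this comparison, DESeq2 called 1.07%, and 3.62% were lower at the unadjusted threshold. A negative value was found for 7 of the 9 genes and for 49.1% of all tested genes, with medians of -0.38 and 0.01. Between the controls, eGFP minus WT replicate 2, edgeR called 0.0% of all tested genes (DESeq2 called 5) and 418, or 3.55%, at an unadjusted p below 0.05, of which 0 were among the 9. There 2 of the 9 genes and 48.8% of all tested genes had a negative value, the medians were 0.51 and 0.01, and the highest values were those of TNFAIP3 (1.52, SE 0.81) and ICAM1 (1.14, SE 0.64). The 3 comparisons share libraries and are not independent of each other.

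**Figure D3:**
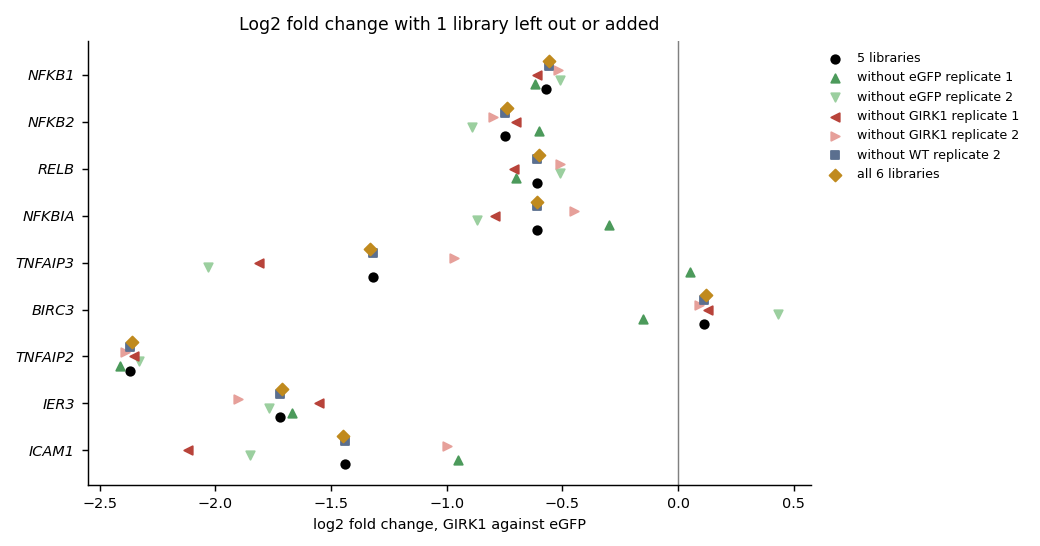
Log2 fold change of each of the 9 tested genes in GIRK1 against eGFP in the 5-library fit (black), with each library left out in turn, and with WT replicate 1 added. TNFAIP2 stays between -2.41 and -2.33 with any 1 library left out and IER3 between -1.90 and -1.55, while TNFAIP3 moves from -2.03 without eGFP replicate 2 to 0.05 without eGFP replicate 1.

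The genes differed in how much they owed to 1 library. With each of the 5 libraries left out in turn, the change against eGFP ran from -0.62 to -0.51 for NFKB1, from -0.71 to -0.51 for RELB and from -0.89 to -0.60 for NFKB2. It ran from -0.87 to -0.30 for NFKBIA and from -2.12 to -0.95 for ICAM1. For NFKBIA, TNFAIP3, NFKB2 and ICAM1 1 of 13 alternatives passed each, the one without eGFP replicate 2, and the highest adjusted p by edgeR among the 13 was 0.934, 0.949, 0.94 and 0.94. The fit without eGFP replicate 2 took its spread from the GIRK1 pair alone (biological coefficient of variation 0.151, against 0.243 with 5 libraries). Over 9212 genes the SD of the log2 ratio was 0.677 between the 2 eGFP libraries and 0.356 between the 2 GIRK1 libraries. It was 0.746 between eGFP replicate 1 and WT replicate 2 and 0.34 between eGFP replicate 2 and WT replicate 2, so eGFP replicate 1 stood apart from the other controls.

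The library labelled WT replicate 1 was below WT replicate 2 in all 9 tested genes. How many of all genes were lower there is not given here. Over 9212 genes the SD of the log2 ratio between these libraries was 1.6, so they differed widely. BIRC3 and TNFAIP2 had 0 reads in WT replicate 1, where 3 reads would be 1.20 RPM, ICAM1 had 1 read, TNFAIP3 3 reads and RELB 11 reads (4.39 RPM). NFKB1 was at 31.5 RPM, NFKB2 at 22.7 RPM, NFKBIA at 107 RPM and IER3 at 104 RPM. Of the 9 tested genes only IER3 was above the GIRK1 libraries there. With that library put back beside WT replicate 2, edgeR called 0 of all genes in GIRK1 against eGFP, the further list genes included, and IER3 alone kept both GIRK1 libraries below every control. The share of all genes with that pattern is not given here.

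The rest of the pathway was read in 4 lists that do not repeat the 10 genes. In GIRK1 against eGFP edgeR called 1.6% of all tested genes in either direction, and 0.84% of all tested genes lower. Of the 16 further subunits and inhibitors, all tested, 1 fell and 0 rose, with a median log2 fold change of -0.45 against eGFP. The gene that fell was ZC3H12A (regnase-1, an RNase that degrades cytokine mRNAs), at 71.0 and 51.4 RPM in eGFP, 21.5 and 14.2 RPM in GIRK1 and 35.0 RPM in WT replicate 2 (-1.82, SE 0.31, adjusted p = 0.0451 by edgeR). Its GIRK1 libraries were the lowest of the 5, and its call was lost without GIRK1 replicate 2 (adjusted p = 0.137), without WT replicate 2 (adjusted p = 0.0502), with at least 10 reads required (adjusted p = 0.0534) and with the 3 controls as 1 group (adjusted p = 0.102). TNIP1, an A20-binding partner, was at 439 and 319 RPM in eGFP, 147 and 150 RPM in GIRK1 and 281 RPM in WT replicate 2, and just missed the threshold (-1.40, SE 0.26, adjusted p = 0.0565 by edgeR). Its log2 fold change was -1.08 without eGFP replicate 1 and -1.66 without eGFP replicate 2. It passed without a filter on low counts (adjusted p = 0.00261 by edgeR) and by DESeq2 (adjusted p = 0.000169). RELA, the main activating subunit, was at 132 ± 13.7 RPM in eGFP and 105 ± 8.03 RPM in GIRK1 (SD, n = 2 each), a log2 fold change of -0.37 (SE 0.22).

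Of the 25 tested kinases and adaptors, edgeR called 0, with 3 higher and 2 lower at an unadjusted p below 0.05, and DESeq2 called 1 in each direction. Over all tested genes 8.13% were higher and 10.7% lower at that threshold, and DESeq2 called 5.75%, so these counts were near the background. The median of that list was 0.03. TAB2, an adaptor of the kinase TAK1, had a log2 fold change of 0.03 (SE 0.32). RBCK1, part of the linear ubiquitin ligase, was at 56.2 and 99.0 RPM in eGFP, 135 and 174 RPM in GIRK1 and 96.3 RPM in WT replicate 2 (0.96, SE 0.29, adjusted p = 0.156 by edgeR). It passed without a filter on low counts (adjusted p = 0.0473 by edgeR).

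Of the 13 tested receptors 1 rose and 0 fell, with a median of -0.20, where 1.6% of all tested genes were called in either direction. TLR3, the sensor of double-stranded RNA, was at 1.76 and 3.32 RPM in eGFP, 14.9 and 12.0 RPM in GIRK1 and 3.62 RPM in WT replicate 2. Both GIRK1 libraries were the highest of the 5 (log2 fold change 2.32, SE 0.39, adjusted p = 0.0451 by edgeR), and the call was lost without GIRK1 replicate 1 (adjusted p = 0.117) or GIRK1 replicate 2 (adjusted p = 0.0614). TNFRSF12A, the receptor of TWEAK, had a log2 fold change of -0.32 (SE 0.33), and LTBR, the lymphotoxin-beta receptor that feeds the alternative arm, one of -0.20 (SE 0.22).

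Of the 34 other target genes tested, 6 fell and 2 rose against eGFP, with a median of -0.48. Over all tested genes 1.6% were called in either direction and 0.84% were called lower. IL1B, the cytokine interleukin-1 beta, was at 190 and 99.4 RPM in eGFP, 4.50 and 3.77 RPM in GIRK1 and 17.1 RPM in WT replicate 2 (-5.18, SE 0.43, adjusted p = 0.00372 by edgeR). CSF3, the granulocyte growth factor, was at 200 and 344 RPM in eGFP, 13.2 and 3.19 RPM in GIRK1 and 72.9 RPM in WT replicate 2 (-5.08, SE 0.64, adjusted p = 0.0179 by edgeR). IL8 (CXCL8), the neutrophil chemokine, was at 63.0 and 25.5 RPM in eGFP, 5.67 and 3.96 RPM in GIRK1 and 16.7 RPM in WT replicate 2 (-3.25, SE 0.51, adjusted p = 0.0359 by edgeR). In all 3 genes GIRK1 was lowest, eGFP highest and WT replicate 2 between, and with the 3 controls as 1 group none passed (adjusted p = 0.0907, 0.0645 and 0.0916 by edgeR). The other genes of this list that fell were CXCL3 (-2.69), CCL20 (-1.82) and IL1A (-2.17), named because they passed. They were close to the threshold (adjusted p = 0.046, 0.0451 and 0.046 by edgeR). With the 3 controls as 1 group, edgeR called 2 genes of the 4 lists higher and 1 lower, of 83 tested. Over all 11389 genes tested in that fit it called 91 higher and 47 lower. The chemokine CCL5 went the other way, with 0 and 0.489 RPM in eGFP, 12.6 and 19.1 RPM in GIRK1 and 2.24 RPM in WT replicate 2 (5.59, SE 0.68, adjusted p = 0.0166 by edgeR, and 0.068 with the 3 controls as 1 group). The other riser was LCN2, the iron-binding lipocalin, named after its values were seen, at 3.71 and 4.01 RPM in eGFP and 38.9 and 34.8 RPM in GIRK1 (3.21, adjusted p = 0.00374 by edgeR). SOD2, the mitochondrial superoxide dismutase, and KLF5, a transcription factor of epithelial cells, were the most highly read of the list, with log2 fold changes of 0.30 (SE 0.25) and 0.07 (SE 0.35). Without eGFP replicate 2 the value of KLF5 was 0.70. In GIRK1 against WT replicate 2 edgeR called 0 genes of the 4 lists. In that comparison 5 of the other target genes were higher and 8 lower at an unadjusted p below 0.05, and DESeq2 called 2 higher and 3 lower among them and 0 in the other 3 lists. Over all tested genes 3.76% were higher and 3.62% lower at that threshold, and DESeq2 called 1.07%.

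**Figure D4:**
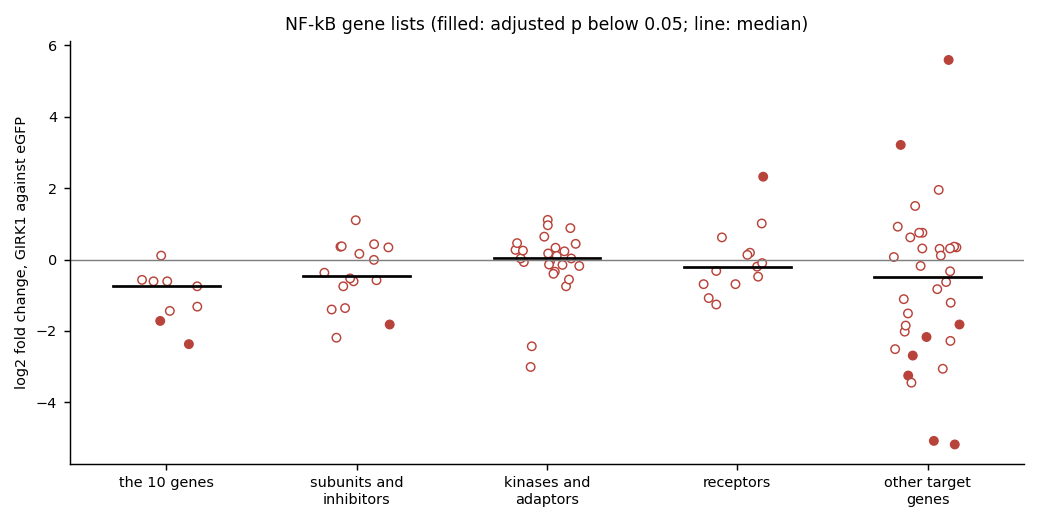
Log2 fold change in GIRK1 against eGFP for every tested gene of the 10-gene set and the 4 further NF-kB lists, each point 1 gene, filled where edgeR's adjusted p was below 0.05, with a line at each list's median. The other target genes spread from -5.18 for IL1B to 5.59 for CCL5, while the medians ran from -0.75 for the 10 genes to 0.03 for the kinases and adaptors.

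IER3 was the gene of the 10 with the largest change among those with a mean of at least 50 reads, and its pattern over the 5 libraries was compared with 9287 other genes. The measure was the root-mean-square difference of log2(RPM + 1) after centring each gene on its own mean, over 5 libraries that each gene shares, so it is a description. The closest were DUSP5, a phosphatase of ERK (0.115), CDCA4, a nuclear cell-cycle regulator (0.118), HIST1H4C, a histone H4 gene whose reads may be shared with its near-identical copies (0.118), the mitotic kinase PLK1 (0.147) and the spindle protein TACC3 (0.147). DUSP5 was at 56.8 and 51.9 RPM in eGFP, 15.8 and 19.5 RPM in GIRK1 and 48.4 RPM in WT replicate 2. Of the 10 genes TNFAIP2, ICAM1 and TNF had too few reads to be compared, and of the other 6 the nearest to IER3 was NFKB2, at place 420 (0.469), and the farthest were BIRC3 (place 5413) and TNFAIP3 (place 5561).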

How the data were processed

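Expression was measured in 6 libraries of MCF10A cells. The authors mapped Ion S5 XL reads to the AmpliSeq human transcriptome panel with the Ion Torrent suite and deposited read counts per amplicon, 1 per gene. The deposited RPM is each count scaled to the total of its library. How reads of near-identical genes were handled is not given in the sources used here.

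Groups came from the labels. The quasi-likelihood test of edgeR 4.0.16 (glmQLFit, glmQLFTest), in R 4.3.3 with limma 3.58.1, was run on the counts of 5 libraries with a mean per group, TMM factors and the genes that filterByExpr kept (11779 of 20812). P-values were adjusted by Benjamini-Hochberg over all genes tested, at a threshold of 0.05. WT replicate 2 adds no residual degree of freedom. Standard errors were derived from F. Counting intervals are exact (Clopper-Pearson, 95%), and 3 reads, 0.187 to 1.20 RPM by library, were taken as the floor. The fit was tested on simulated data for GIRK1 against eGFP over the 11779 genes, with 100 genes changed 2-fold and 100 changed 8-fold, where 3 unchanged genes were called. The changed genes were drawn from those with a mean of at least 50 reads, so recovery at lower counts was not tested.

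The 10 genes, the 4 lists, the markers, the comparisons and the choice to set WT replicate 1 apart were made with earlier results of these data known. Of each list, genes past the threshold (at most 4, by size of change) and the 2 with the highest mean RPM were named, with any other named gene said to be so. OTULIN and CXCL8 were matched by older symbols (FAM105B, IL8). Gene positions are from GENCODE 29 (GRCh38), by symbol. Promoters are from RefSeq (GRCh38.p14).

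Alternatives were DESeq2 1.42.0 (size factors and Wald test), scaling by total reads, no filter, at least 10 reads in every library, the replicate number as a block, all 6 libraries, the 3 controls as 1 group, leaving out each library, and the study's rule of a 2-fold difference in mean RPM with a coefficient of variation below 0.7. The qPCR, Western blot and functional assays were not analysed here.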

Additional observations from a re-analysis of the deposited data

Results flagged for a closer look

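The library labelled WT replicate 1, which was kept out of the main comparisons, held reads of genes that were absent or lower in the eGFP libraries and WT replicate 2. KCNJ3 was at 19.15 RPM (48 reads) there and at 0 in the other controls. The luminal markers ESR1 (191.9 RPM), PGR (62.65 RPM), TFF1 (5106 RPM) and KRT19 (923.7 RPM) were likewise at 0 in the other controls. GATA3 was at 982 RPM against at most 19.2 RPM in them, FOXA1 at 671.2 RPM against at most 4.50 RPM, and XBP1 at 2677 RPM against at most 532 RPM.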

How the results depend on the processing

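In GIRK1 against eGFP edgeR called 188 genes. It called 865 without a filter on low counts, 107 with at least 10 reads in every library and 0 with all 6 libraries, while DESeq2 called 677, the study's rule 1309 and the unadjusted threshold 2218. Leaving out 1 library gave 158 to 2997, the latter without eGFP replicate 2, and 973 without eGFP replicate 1. Of the 10 genes 2 were called, but 0 with all 6 libraries, 1 with the 3 controls as 1 group, 6 at the unadjusted threshold and 0 to 6 with 1 library left out (0 without GIRK1 replicate 1, 1 without GIRK1 replicate 2, 6 without eGFP replicate 2). IER3 passed in 11 of 13 alternatives (adjusted p from 1.62e-07 by DESeq2 to 0.868 by edgeR with all 6 libraries) and TNFAIP2 in 9 of 13 (0.00313 to 0.934), failing also with the 3 controls as 1 group (0.0645). The 4 pathway lists held 10 called genes, 22 without the filter, 4 with at least 10 reads, 18 by DESeq2, 0 with all 6 libraries, 3 with pooled controls and 7 to 32 with 1 library left out.

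Against WT replicate 2, 27 genes were called, 133 without the filter, 16 with at least 10 reads, 126 by DESeq2, 0 with all 6 libraries and 34 to 576 with 1 library left out. Of the 10 genes 0 were called, 1 by DESeq2 and 0 to 1 with 1 library left out. In eGFP against WT replicate 2 the count of 0 became 6 without the filter, 5 by DESeq2 and 5 to 1268 with 1 library left out, the latter without eGFP replicate 2. Among the 10 genes it was 0 to 3. The count of 5 genes with GIRK1 below all 3 controls was 1 with WT replicate 1 among them and 5 to 8 with 1 library left out. Fewer libraries make this pattern easier for any gene. Of all tested genes 19.3% lay below all 3 controls and 24.8% below both eGFP libraries alone. The shares for the other settings are not given here. The cause of these shifts was not tested.

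The labels do not say whether libraries with the same replicate number were handled together, and this was not tested. With 2 pairs, the difference between replicates correlated at 0.194 between eGFP and GIRK1 over 9212 genes. With the replicate block 549, 77 and 1 genes were called in the 3 comparisons and 20 in the 4 lists, and the same counts of the 10 genes (2, 0 and 0) as without it. Of the genes named, TNIP1 (adjusted p = 0.0258 by edgeR) and RBCK1 (0.0488) passed with it and not without it. The block turned NFKBIA (-0.14) and TNFAIP3 (-0.58) against WT replicate 2.

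Other changes of direction were all in results that did not pass either way. Against eGFP these were TNFAIP3 (0.05), BIRC3 (-0.15), TAB2 (-0.35) and KLF5 (-0.36) without eGFP replicate 1, TNFRSF12A (0.05) and SOD2 (-0.01) without GIRK1 replicate 1, TAB2 (-0.09) without GIRK1 replicate 2, and BIRC3 (-0.10) and KLF5 (-0.06) with pooled controls. Against WT replicate 2 they were NFKBIA (-0.08) and TNFAIP3 (-0.28) without GIRK1 replicate 1, ICAM1 (0.14) without GIRK1 replicate 2, and, with all 6 libraries, NFKB1 (0.15), NFKB2 (0.26), RELB (0.22), BIRC3 (0.55) and ICAM1 (0.37). With 1 library left out, the values against eGFP ran from -2.03 to 0.05 for TNFAIP3, -0.15 to 0.43 for BIRC3, -0.35 to 0.55 for TAB2, -0.82 to 0.05 for TNFRSF12A, -0.01 to 0.56 for SOD2 and -0.36 to 0.70 for KLF5, and those against WT replicate 2 from -0.08 to 0.26 for NFKBIA, -0.28 to 0.56 for TNFAIP3 and -0.98 to 0.14 for ICAM1. No scaling moved the median of all genes by over 0.1.

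A line left with 1 library is assumed to vary like the others. The biological coefficient of variation was 0.243 with 5 libraries, 0.151 without either eGFP library and 0.308 without either GIRK1 library. Counts of calls with 1 library left out rest on these unlike spreads. The smallest detectable levels, from 0.187 to 1.20 RPM, limit TNF in every library and TNFAIP2, ICAM1, BIRC3 and TNFAIP3 in WT replicate 1.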
